A study of Homo sapiens with 6 samples.

Results

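Genes that copy DNA and supply its nucleotides were measured in Agrin-depleted HaCaT keratinocytes. The set held 41 genes, named by their function in DNA replication, deoxynucleotide supply or entry into S phase. All 41 were among the 14168 genes listed, and all 41 reached 0.5 CPM (reads scaled to library size) in at least 3 libraries, the filter that left 13050 genes for testing. Polyadenylated RNA came from cells given an siRNA against Agrin (siAgrin, 3 libraries) or a control siRNA (siControl, 3 libraries). HaCaT is an established, spontaneously immortalised line of human keratinocytes, so every library came from the same line, and no other allele or agent was named for either group. The labels number the replicates but do not say that they were separate cultures, so p-values measure the spread between these libraries, which may be technical. The sources do not say which Agrin siRNA was sequenced or when the cells were harvested, and they differ on the RNA kit, the RNA amount and the culture medium.

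DNA replication begins in G1 phase, when the origin recognition complex (ORC) with CDC6 and CDT1 loads the ring-shaped MCM2-7 helicase onto DNA. At the start of S phase CDC45 and the GINS complex join the ring, primase and the polymerases alpha, delta and epsilon synthesise DNA, and the sliding clamp PCNA, loaded by replication factor C (RFC), holds the polymerases in place. Replication protein A (RPA) coats the single strands, while ribonucleotide reductase, thymidylate synthase and thymidine kinase supply deoxynucleotides. Many of these genes are transcribed under E2F factors and peak at the G1/S border. In bulk RNA, more cells in S phase and more RNA per cell in S phase cannot be told apart.

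The targeted transcript followed the labels. AGRN, at chr1:1020120-1056118 on GRCh38, had 403, 412 and 387 CPM in siAgrin libraries, against 797, 833 and 833 CPM in siControl libraries (log2 fold change -1.03, SE 0.047, adjusted p = 2.6e-05 from limma; exact two-sided permutation p = 0.1, the smallest that 3 against 3 allows). Libraries held 40958553 to 43312708 reads in the listed genes, so counting error was small for all genes of the set but CCNE1. The 10 keratinocyte markers summed to 13537 to 15877 CPM in siAgrin libraries and to 11960 to 12734 CPM in siControl libraries. Of 6 endothelial markers 1 was listed, at no more than 0.044 CPM, and of 5 melanocyte markers only PMEL was listed, at 1.99 to 3.87 CPM.

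After Agrin knockdown 3 of the 41 genes rose and none fell. They were ORC1, a subunit of the origin recognition complex, RFC2, a subunit of the clamp loader, and RRM1, the large subunit of ribonucleotide reductase. Each rose by about 0.31 to 0.32 on the log2 scale, a modest change. Log2 fold changes compare siAgrin with siControl on log2(CPM + 0.5), and a gene was called at a limma p-value below 0.01 after Benjamini-Hochberg adjustment over all tested genes. The 3 genes were 7.32% of the set, against 9.14% of all tested genes called higher, a share near the background. None was called lower, against 9.07% of all tested genes, and edgeR and DESeq2 also called none lower. At an unadjusted p below 0.05, 17 of the 41 were higher and 1, CCNE1, was lower, together 43.9% of the set against 47.4% of all tested genes at that limit in either direction. No gene of the set changed by more than 2-fold at a limma adjusted p below 0.01, against 1.55% of all tested genes. The ratios of mean CPM lay between 0.704 (CCNE1) and 1.44 (GINS2).

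ORC1 had 34.5, 32.4 and 36.8 CPM in siAgrin libraries, against 27.3, 26.7 and 29.1 CPM in siControl libraries. Mean levels of 34.6 ± 2.25 CPM in siAgrin and 27.7 ± 1.24 CPM in siControl (SD, n = 3 each) gave a log2 fold change of 0.31 (SE 0.062, limma adjusted p = 0.0066). RFC2 had 65.2, 57.0 and 63.6 CPM in siAgrin libraries, against 49.9, 49.2 and 50.1 CPM in siControl libraries. The siControl libraries were almost level for RFC2, and every siAgrin library lay above them (log2 fold change 0.31, SE 0.056, limma adjusted p = 0.0046). RRM1 had 227, 198 and 216 CPM in siAgrin libraries, against 173, 168 and 171 CPM in siControl libraries (log2 fold change 0.32, SE 0.055, limma adjusted p = 0.0039). No siAgrin library overlapped a siControl library for any of the 3, and siAgrin 2 was the lowest siAgrin library for each. ORC1 lies at chr1:52372829-52404423, RFC2 at chr7:74231499-74254458 and RRM1 at chr11:4094707-4138932 of GRCh38. Exons of RRM1 overlap those of the antisense gene RRM1-AS1, and since the strand setting of the counting was not stated, their reads cannot be told apart. ORC1 and RFC2 share no exon with another annotated gene, but ORC1 has 1 pseudogene named after it.

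**Figure D1:**
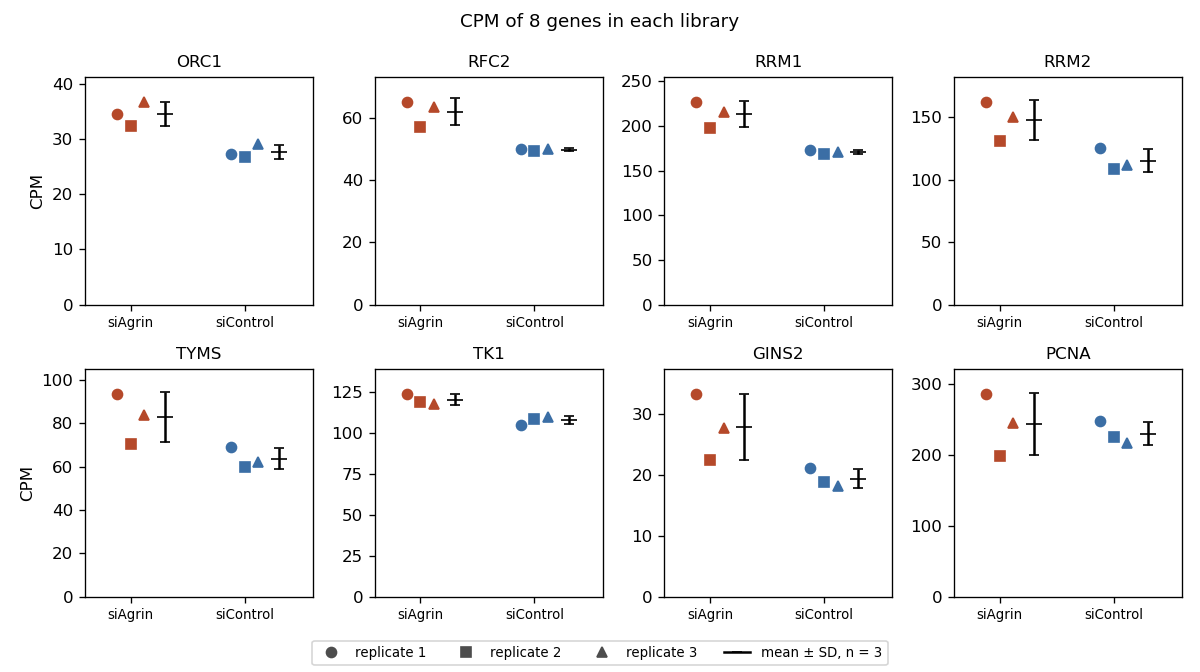
CPM (reads scaled to library size, linear axis from 0) of ORC1, RFC2, RRM1, RRM2, TYMS, TK1, GINS2 and PCNA in the 3 siAgrin (left) and 3 siControl (right) libraries, with the mean and SD. The groups do not overlap for the first 7 genes, while PCNA spans 199 to 287 CPM in siAgrin and 217 to 248 CPM in siControl.

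These calls needed most of the libraries. The count of 3 became 0 without siAgrin 3, 0 without siControl 1, 0 without siControl 2 and 0 without siControl 3. Adjusted p reached 0.037 for ORC1, 0.031 for RFC2 and 0.027 for RRM1 (limma). The count stayed 3 without siAgrin 1, and without siAgrin 2 it was 12, all of them higher. Counts of all tested genes called in these fits are not given here. With fewer libraries calls can change for all genes, so these shifts are not shown to be particular to the set. The log2 fold changes of ORC1, RFC2 and RRM1 stayed between 0.27 and 0.37 in all of these fits.

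At the looser adjusted p below 0.05, 12 of the 41 genes (29.3%) were higher, against 18.3% of all tested genes, and none was lower, against 18.5%. Beside the 3 above they were MCM5, CDC45, GINS2, RFC4, RPA3, LIG1, TYMS, RRM2 and TK1. The 3 siAgrin values all lay above the 3 siControl values for 16 genes (39.0%), against 25% of all tested genes. Only CCNE1 had all siAgrin values below, against 24.9% of all tested genes. The count of 16 was 27 without siAgrin 2 and 27 without siControl 1, and the count of 1 was 3 without siAgrin 1 and 2 without siControl 2. Leaving out a library can only keep or raise such counts, so these leave-outs do not check their stability. The log2 fold change was positive for 37 of the 41 genes (90.2%), against 49.6% of all tested genes, with a median of 0.13 against a median near 0 (-0.0019). The 4 genes with a negative value were MCM3, POLD3, CCNE1 and CCNE2, and none of these passed the test.

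**Figure D2:**
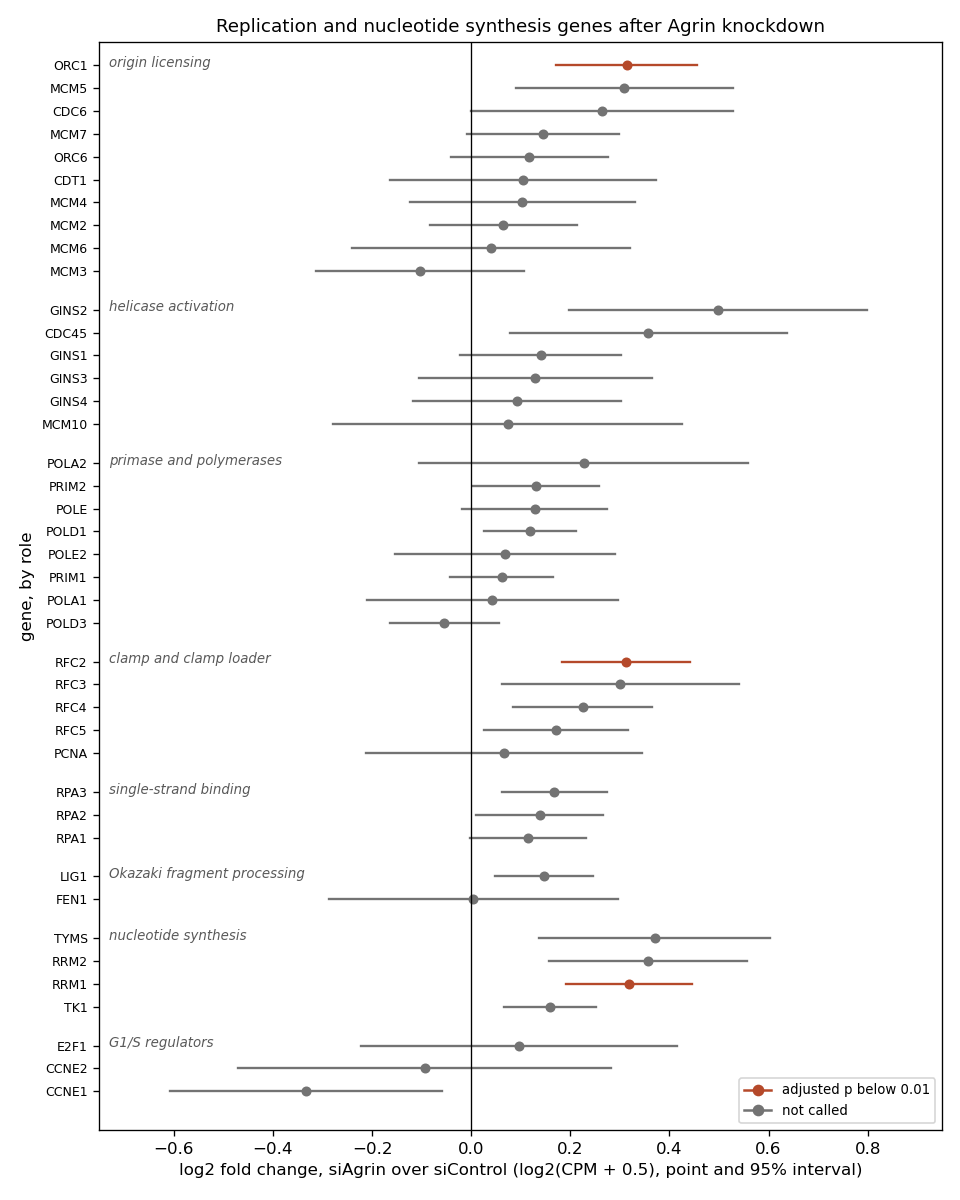
Log2 fold change of siAgrin over siControl on log2(CPM + 0.5) for each of the 41 genes, grouped by role, with limma's 95% interval; coloured points passed adjusted p below 0.01. Values run from -0.33 (CCNE1) to 0.50 (GINS2), and 37 of 41 lie above 0.

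All 4 genes of nucleotide synthesis had every siAgrin value above the siControl values, which held for 25% of all tested genes. The median log2 fold change of these 4 was 0.34. All 4 were higher at a limma adjusted p below 0.05, against 18.3% of all tested genes, although only RRM1 passed at 0.01. RRM2, the small subunit of ribonucleotide reductase that is made in S phase, had 163, 131 and 151 CPM in siAgrin libraries, against 126, 109 and 111 CPM in siControl libraries (log2 fold change 0.36, limma adjusted p = 0.015). TYMS, thymidylate synthase, had 93.7, 70.7 and 83.9 CPM in siAgrin libraries, against 69.1, 59.8 and 61.9 CPM in siControl libraries (log2 fold change 0.37, limma adjusted p = 0.023). The difference was larger in siAgrin 1 than in siAgrin 2, which lay just above the highest siControl library. TK1, the cytosolic thymidine kinase of the salvage pathway, had 124, 119 and 118 CPM in siAgrin libraries, against 105, 108 and 110 CPM in siControl libraries (log2 fold change 0.16, limma adjusted p = 0.018). TK1 differed least among these 4, and its siAgrin libraries were the tightest. Exons of TYMS overlap ENOSF1 and TYMSOS on the other strand, and TYMS and RRM2 have 2 and 3 named pseudogenes, so their levels are less certain than that of TK1.

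Among the 10 origin licensing genes ORC1 alone was called (10%, against 9.14% of all tested genes called higher), and the median log2 fold change was 0.11. MCM5, a subunit of the MCM2-7 ring, had 98.6, 74.1 and 86.2 CPM in siAgrin libraries, against 73.0, 66.8 and 67.7 CPM in siControl libraries (log2 fold change 0.31, limma adjusted p = 0.036), without overlap. CDC6, which helps to load the ring, had 156, 116 and 138 CPM in siAgrin libraries, against 128, 103 and 110 CPM in siControl libraries, and the groups overlapped. The other ring subunits did not pass, with log2 fold changes of 0.06 (MCM2), -0.10 (MCM3), 0.10 (MCM4), 0.04 (MCM6) and 0.14 (MCM7). Their 95% intervals reached at most 0.33 (MCM4) and went down to -0.31 (MCM3). ORC6, another origin recognition subunit, had a log2 fold change of 0.12 and overlapped between the groups. CDT1, the loading factor that is destroyed once S phase begins, had 44.7, 60.0 and 52.3 CPM in siAgrin libraries, against 42.3, 50.0 and 53.2 CPM in siControl libraries (log2 fold change 0.10). CDT1 was the only gene of the set with a lower level in siAgrin 1 than in siAgrin 2, at a ratio of 0.745.

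Scaled by exon length, the MCM2-7 subunits were not level with one another. In siAgrin and siControl libraries the mean was 49.2 and 44.4 CPM per kb for MCM7, 39.9 and 42.6 CPM per kb for MCM3, and 35.8 and 34.1 CPM per kb for MCM2. MCM6 (24.0 and 23.1) and MCM4 (24.0 and 22.2) were close to each other on this CPM per kb scale, within the spread of their siAgrin libraries. MCM5 was the lowest, at 11.9 and 9.52 CPM per kb, and the order of MCM7, MCM3, MCM2 and MCM5 was the same in both groups. Length here is that of all annotated exons of a gene merged, from 3645 bases for MCM3 to 9852 bases for MCM4, so a gene with long rare isoforms is scaled too low.

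**Figure D3:**
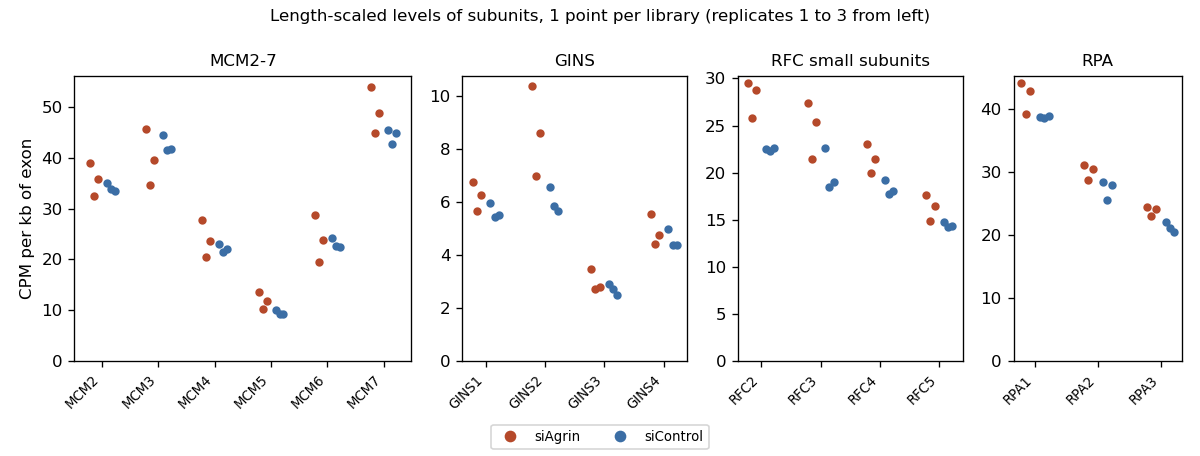
CPM per kb of merged exon (linear axes from 0) for the subunits of MCM2-7, GINS, RFC and RPA, 1 point per library, siAgrin left of siControl. MCM7 is the highest and MCM5 the lowest MCM subunit in both groups, and for RFC2 the siAgrin points all lie above the siControl points.

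None of the 6 helicase activation genes was called by limma at 0.01, with 2 (33.3%) at an unadjusted p below 0.05, against 47.4% of all tested genes. GINS2, a subunit of the 4-part GINS complex, had the largest log2 fold change of the set, 0.50 (SE 0.13, limma adjusted p = 0.020). It had 33.3, 22.5 and 27.6 CPM in siAgrin libraries, against 21.1, 18.8 and 18.1 CPM in siControl libraries. The siAgrin libraries were far apart but all lay above siControl. CDC45, the other partner of the active helicase, had 53.6, 37.9 and 44.6 CPM in siAgrin libraries, against 38.9, 32.7 and 33.6 CPM in siControl libraries (log2 fold change 0.36, limma adjusted p = 0.0498). For CDC45 siAgrin 2 lay just below siControl 1. GINS1, GINS3 and GINS4 had log2 fold changes of 0.14, 0.13 and 0.09 and overlapped between the groups, as did MCM10, a factor of helicase activation (0.07). The transcripts of 1 complex thus did not share 1 value, but the difference between GINS2 and its partners was not tested.

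The 8 primase and polymerase genes stayed close to their siControl levels, with a median log2 fold change of 0.09 and none called at 0.01 or 0.05 by limma, although 2 (25%) had an unadjusted p below 0.05, against 47.4% of all tested genes. POLD1, the catalytic subunit of polymerase delta, had 57.6, 56.2 and 57.5 CPM in siAgrin libraries, against 51.5, 54.0 and 52.2 CPM in siControl libraries (log2 fold change 0.12, limma adjusted p = 0.051). PRIM2, the large primase subunit, had 27.9, 25.4 and 28.1 CPM in siAgrin libraries, against 25.1, 24.3 and 24.7 CPM in siControl libraries (log2 fold change 0.13, limma adjusted p = 0.098). Neither gene overlapped between the groups (25% of these 8 genes, against 25% of all tested genes), and both differences were small. PRIM1 (0.06), POLA1 (0.04), POLA2 (0.23), POLD3 (-0.05), POLE (0.13) and POLE2 (0.07) all overlapped in CPM between the groups, these values being log2 fold changes. Exons of POLD1, POLD3, POLA2 and PRIM1 overlap another gene on the same strand, so reads there could be shared or left uncounted.

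Of the clamp loader subunits in the set RFC2 was called, RFC3, RFC4 and RFC5 had log2 fold changes of 0.30, 0.22 and 0.17, and RFC4 passed at 0.05 (limma adjusted p = 0.023). RFC4 had 69.1, 59.8 and 64.3 CPM in siAgrin libraries, against 57.6, 53.1 and 54.2 CPM in siControl libraries. RFC5 did not overlap between the groups either, whereas RFC3 did. PCNA, the clamp itself and a common proliferation marker, had 287, 199 and 245 CPM in siAgrin libraries, against 248, 226 and 217 CPM in siControl libraries. For PCNA siAgrin 1 was the highest and siAgrin 2 the lowest of all 6 libraries, so the log2 fold change of 0.07 (limma adjusted p = 0.69) had a wide 95% interval of -0.21 to 0.35. PCNA, RFC3 and RFC5 have 3, 1 and 1 named pseudogenes. RFC1, the large subunit of the loader and no member of the set, had a log2 fold change of -0.01 (limma adjusted p = 0.83).

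For each of the 3 RPA subunits the lowest siAgrin library lay slightly above the highest siControl library. Of all tested genes 25% had no overlap in this direction. RPA3, the smallest subunit, had 79.0, 74.8 and 78.3 CPM in siAgrin libraries, against 71.7, 68.6 and 66.2 CPM in siControl libraries (log2 fold change 0.17, limma adjusted p = 0.024). RPA2 had 61.8, 56.9 and 60.3 CPM in siAgrin libraries, against 56.5, 50.7 and 55.4 CPM in siControl libraries (log2 fold change 0.14, limma adjusted p = 0.086). RPA1, the large DNA-binding subunit, had a log2 fold change of 0.11. None of the 3 passed at 0.01, although RPA2 and RPA3 had an unadjusted p below 0.05 in limma.

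Both genes of Okazaki fragment processing, which joins the pieces of the lagging strand, missed the threshold, and they differed in spread. LIG1, DNA ligase 1, had 62.0, 58.7 and 62.3 CPM in siAgrin libraries, against 53.9, 55.9 and 55.4 CPM in siControl libraries (log2 fold change 0.15, limma adjusted p = 0.030). FEN1, the flap endonuclease, had 80.6, 54.6 and 65.7 CPM in siAgrin libraries, against 71.2, 64.6 and 62.2 CPM in siControl libraries. The siAgrin libraries of FEN1 lay on both sides of siControl, and its log2 fold change was 0.0043 (95% interval -0.29 to 0.30). Exons of FEN1 overlap FADS2 on the same strand.

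None of the 3 G1/S regulators was called by limma at 0.01, and 1, CCNE1, had an unadjusted p below 0.05. CCNE1, cyclin E1, which activates CDK2 at the G1/S border, had 0.908, 0.677 and 0.825 CPM in siAgrin libraries, against 1.18, 0.996 and 1.25 CPM in siControl libraries (log2 fold change -0.33, SE 0.12, limma adjusted p = 0.060). It was the lowest gene of the set, with 31 to 58 reads per library, whereas every other gene had at least 412. Counting error alone was 13.1% to 18.0% of its level in a library, about as large as its spread between libraries (CV 14.6% in siAgrin and 11.3% in siControl). CCNE2, cyclin E2, had 14.0, 8.99 and 10.2 CPM in siAgrin libraries, against 13.8, 10.5 and 10.9 CPM in siControl libraries, with overlap (log2 fold change -0.09). E2F1, a transcription factor of S-phase genes, had 20.8, 13.8 and 17.6 CPM in siAgrin libraries, against 17.9, 15.0 and 15.4 CPM in siControl libraries (log2 fold change 0.10, limma adjusted p = 0.61). As with PCNA, siAgrin 1 was the highest and siAgrin 2 the lowest of the 6 libraries for E2F1.

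The siAgrin libraries differed from one another in the same order for almost the whole set. Among the siAgrin libraries, siAgrin 1 was the highest for 36 of the 41 genes (87.8%, against 41.0% of all tested genes) and siAgrin 2 the lowest for 39 (95.1%, against 40.6%). Both held for 35 genes (85.4%, against 31.3%). The order was not particular to the set. In the related lists described below, both held for 82.9% of other replication factors and 73.0% of G2 and mitosis genes. The share was 63.3% for other nucleotide synthesis and 43.8% for other G1/S control. Relative to the siControl mean, the median gene of the set stood at 0.28 in siAgrin 1, 0.02 in siAgrin 2 and 0.14 in siAgrin 3 on the log2 scale, while siControl 1, 2 and 3 stood at 0.07, -0.05 and -0.03. The median of all tested genes stayed within 0.0053 of 0 in every library. siAgrin 1 lay above all siControl libraries for 38 genes (92.7%, against 41.6% of all tested genes), and siAgrin 2 lay below all of them for 12 (29.3%, against 38.9%). The ratio of siAgrin 1 to siAgrin 2 was over 1.2 for 21 of the 41 genes (51.2%), against 11.3% of all tested genes, and ran from 0.745 (CDT1) to 1.57 (MCM10). siControl 1 was likewise the highest siControl library for 33 genes (80.5%, against 40.3%), but the ratio of siControl 1 to siControl 2 was over 1.2 for 4 (9.76%, against 3.56%). The median SD on the log2 scale was 0.15 in siAgrin libraries and 0.07 in siControl libraries for the set, and 0.09 and 0.06 for all tested genes. These counts are descriptions over genes that share libraries, and have no test.

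**Figure D4:**
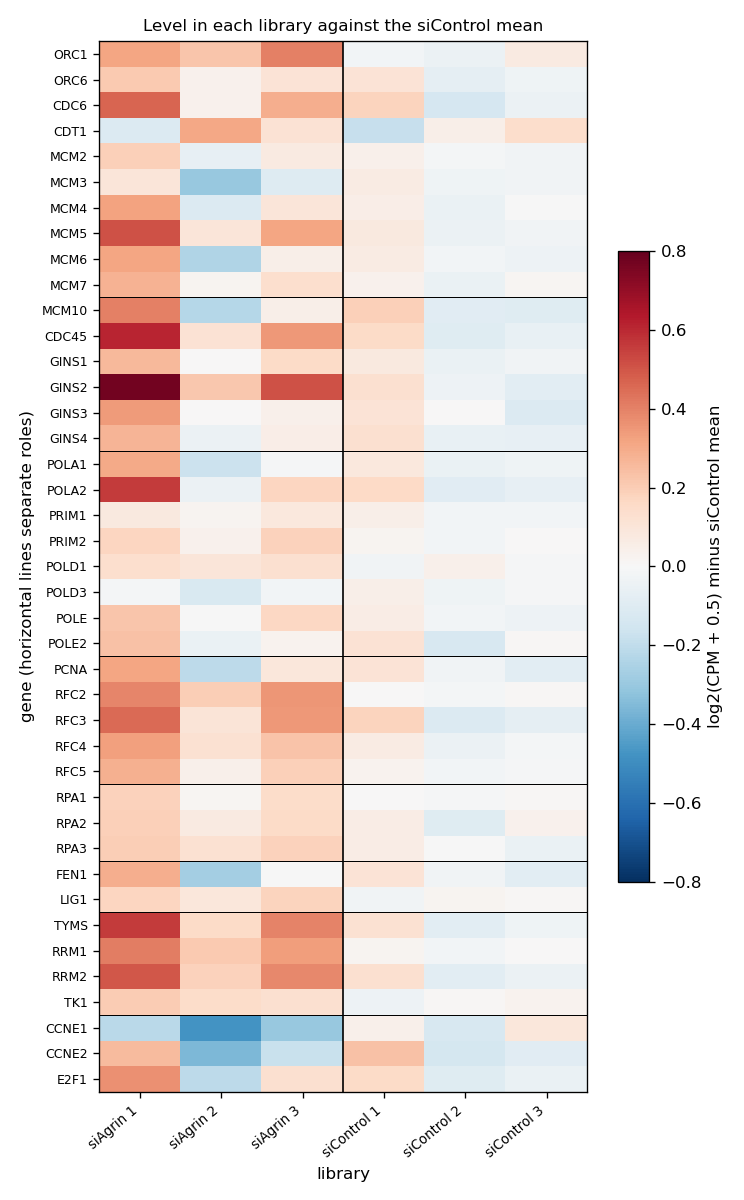
Level of each of the 41 genes in each library, as log2(CPM + 0.5) minus the siControl mean of that gene (red higher, blue lower), siAgrin libraries left of siControl. siAgrin 1 is the reddest column for most genes and siAgrin 2 the palest or bluest of the siAgrin columns, with CDT1 reversed.

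Other transcripts moved with this order. The 7 fibroblast markers summed to 9.47, 46.7 and 21.9 CPM in siAgrin libraries, against 12.4, 19.6 and 12.2 CPM in siControl libraries, so that siAgrin 2, where the replication genes were lowest, held the most. COL1A2, a collagen chain of fibroblasts, was at 0.27, 16.2 and 5.99 CPM in siAgrin libraries, against 0.13, 2.66 and 0.064 CPM in siControl libraries. Log2 fold changes were 2.07 for COL1A2, 0.55 for COL1A1 and 0.29 for COL3A1, but -0.85 for LUM and -0.19 for DCN. None of these markers was called, and the other fibroblast markers were too low to be tested. Among the siAgrin libraries, siAgrin 2 held the most of each of the 7. The keratinocyte markers summed to 13537, 15877 and 14999 CPM in siAgrin libraries, against 11960, 12388 and 12734 CPM in siControl libraries. Of 6 leukocyte markers 2 were listed, summing to 24.9 to 36.6 CPM in siAgrin and 35.4 to 46.6 CPM in siControl libraries, nearly all of it CD68. Transcripts of the mitochondrial genome took 0.646%, 0.781% and 0.699% of the listed CPM in siAgrin libraries, against 1.13% to 1.14% in siControl libraries. Reads in the listed genes also ran opposite to the replication genes among the siAgrin libraries. They were 40958553 in siAgrin 1, 42355384 in siAgrin 2 and 42164312 in siAgrin 3. The CPM of 1 read, which falls as the whole library grows, was 0.0221, 0.0218 and 0.0217. Whole libraries thus had another order, with siAgrin 3 the largest. The part of these differences in the levels of the replication genes was not tested.

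Promoter sequence offers a feature that the choice of genes did not use. RefSeq windows of GRCh38.p14, from 250 bases before to 50 bases after a start site, were on hand for 34 of the 41 genes, and not for MCM4, MCM5, GINS4, POLD3, RPA2, RPA3 and CCNE2. They were searched on both strands for the E2F-type words TTTCCCGC, TTTGGCGC, TTTCGCGC and TTTGCCGC, of which TTTGGCGC and the reverse of TTTCGCGC can overlap. At least 1 word stood in a window of 18 genes (52.9%), against 3.99% of the 27305 genes with a window and 6.88% of the 9529 tested genes with one. The following stretches show the words in the DNA of 6 of these genes, 5′ to 3′ on the gene's own strand, with the words in capitals. Each ends before the first annotated base of its gene:
MCM6, chr2:135876510-135876549, minus strand: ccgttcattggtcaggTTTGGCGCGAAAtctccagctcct
PCNA, chr20:5126658-5126697, minus strand: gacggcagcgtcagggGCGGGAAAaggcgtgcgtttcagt
TYMS, chr18:657598-657637, plus strand: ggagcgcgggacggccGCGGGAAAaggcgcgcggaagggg
CDT1, chr16:88803738-88803777, plus strand: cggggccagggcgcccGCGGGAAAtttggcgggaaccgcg
MCM3, chr6:52284893-52284932, minus strand: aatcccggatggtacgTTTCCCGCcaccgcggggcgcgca
E2F1, chr20:33686395-33686434, minus strand: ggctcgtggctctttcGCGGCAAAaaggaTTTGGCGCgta

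The 3 genes that rose were among the 16 of 34 genes with none of these exact words in their windows. Words that differ by a letter were not counted, so a gene without a match may still hold an E2F site. For comparison, 60 bases are shown that end just before the annotated gene (ORC1 and RFC2) or just before the RefSeq start, which lies upstream of it (RRM1), with CCAAT, the word of the factor NF-Y, in capitals on either strand (ATTGG is its reverse):
ORC1, chr1:52404424-52404483, minus strand: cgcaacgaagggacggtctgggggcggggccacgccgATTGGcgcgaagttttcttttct
RFC2, chr7:74254459-74254518, minus strand: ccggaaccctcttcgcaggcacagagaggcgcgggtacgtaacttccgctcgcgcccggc
RRM1, chr11:4094625-4094684, plus strand: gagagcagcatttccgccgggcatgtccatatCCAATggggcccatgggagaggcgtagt

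The median log2 fold change was 0.13 over the 18 genes with an E2F-type word and 0.14 over the 16 without, values that lie close together. The median ratio of siAgrin 1 to siAgrin 2 was 1.30 over the 18 and 1.15 over the 16. CCAAT stood in a window of 20 of the 34 genes (58.8%), against 39.7% of all genes with a window. The words TTTGAA and TTCGAA, known from promoters of mitotic genes, stood in windows of 2 genes (MCM6 and RRM1; 5.88%), against 19.5% of all genes with a window and 24 of 31 G2 and mitosis genes (77.4%). A match is a description of the letters, not of binding, and these differences were not tested.

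Lists of related genes were read from the same fit. Fits with fewer libraries, no low filter or no trend can change calls among all tested genes. Counts of all genes called in such fits are not set beside the list counts below. Shifts of the list counts in such fits are therefore not shown to be particular to a list. Of 41 other replication factors 6 rose (14.6%, against 9.14% of all tested genes) and none fell (against 9.07%), with a median log2 fold change of 0.15. At an unadjusted p below 0.05 in limma 2 were lower, MCM9 and POLD4, and edgeR and DESeq2 called none lower. RNASEH2A, a subunit of the nuclease that removes ribonucleotides from DNA, had 92.7, 90.0 and 88.9 CPM in siAgrin libraries, against 73.1, 73.2 and 72.1 CPM in siControl libraries (log2 fold change 0.31, limma adjusted p = 0.00095). ORC3 (0.35), TICRR (0.40), a factor of origin firing, and POLE4 (0.53), a small polymerase epsilon subunit, rose too, by these log2 values. The remaining called genes were DBF4, the activator of the CDC7 kinase, and the chromatin assembly subunit CHAF1B. The count of 6 was 12 without siAgrin 2, 1 without siAgrin 3, 1 without siControl 2 and 3 without siControl 3, and 3 with no low filter.

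Of 30 other genes of nucleotide synthesis 8 rose and none fell, a share of 26.7% against 9.14% of all tested genes (median log2 fold change 0.18). TK2, a mitochondrial thymidine kinase, was the only one lower at an unadjusted p below 0.05 in limma, and edgeR and DESeq2 called none lower. The count of 8 was 13 without siAgrin 2, 2 without siAgrin 3, 4 without siControl 1, 2 without siControl 2 and 2 without siControl 3, and it was 4 with no low filter and 3 without a trend in limma. They include IMPDH1 (0.43) and IMPDH2 (0.21), which commit purines to guanine nucleotides, SHMT1 (0.50), SHMT2 (0.22) and MTHFD2 (0.27) of one-carbon metabolism, PAICS (0.27) and PRPS1 (0.25) of purine synthesis, and the nucleoside diphosphate kinase NME2 (0.26), all as log2 fold changes. IMPDH1 had 126, 127 and 127 CPM in siAgrin libraries, against 91.5, 94.1 and 95.1 CPM in siControl libraries (limma adjusted p = 0.00027). IMPDH1 did not share the order of siAgrin libraries seen in the replication genes.

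Of 32 other G1/S control genes 6 rose (18.8%, against 9.14% of all tested genes) and none fell by limma at 0.01 (median log2 fold change 0.14), though DESeq2 called 1 lower, edgeR called none and 4 were lower at an unadjusted p below 0.05 in limma (E2F6, RBL2, CDKN2A and FBXW7). In either direction 16 of the 32 (50%) passed that limit, against 47.4% of all tested genes. The count of 6 was 1 without siAgrin 3, 2 without siControl 2 and 3 without siControl 3, and 3 with no low filter. The cyclin gene CCNA2, which acts in S phase and G2, rose by 0.61 on the log2 scale, and the kinases CDK6 and CDK2 rose by 0.40 and 0.31. E2F7 (0.45) and E2F2 (0.36), members of the E2F family, and FBXO5 (0.25), an inhibitor of the anaphase-promoting complex, were the others. The CDK inhibitor gene CDKN1A was not called, with 53.6, 81.3 and 68.7 CPM in siAgrin libraries, against 70.0, 73.9 and 84.2 CPM in siControl libraries, lowest where the replication genes were highest. CDKN1A was picked after its values were known, and CDKN1C was too low to be tested.

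Among the 4 related lists, genes of G2 phase and mitosis stood farthest from the replication set. Of 37 such genes 29 rose (78.4%, against 9.14% of all tested genes) in limma. None fell in limma (against 9.07% of all tested genes), edgeR or DESeq2, with 0 lower at an unadjusted p below 0.05 in limma. Of the 37 genes, 36 had all siAgrin values above siControl (97.3%, against 25% of all tested genes). The median log2 fold change of the list was 0.48. The replication set had 3 of 41 genes called higher, 16 of 41 with all siAgrin values above siControl, and a median of 0.13. PTTG1, the separase inhibitor securin, had 126, 126 and 134 CPM in siAgrin libraries, against 90.6, 90.4 and 88.1 CPM in siControl libraries (log2 fold change 0.52, limma adjusted p = 0.00022). KIF2C, CDC25C and CCNB2 rose by 0.50, 0.48 and 0.53. In siAgrin 1, 2 and 3 the median mitotic gene stood at 0.53, 0.33 and 0.52 above the siControl mean on the log2 scale, and the median replication gene at 0.28, 0.02 and 0.14. In siAgrin 2 the median mitotic gene was thus well above siControl while the median replication gene was level with it. The replication genes were spread, with 12 of 41 below all siControl libraries in siAgrin 2 and the 16 above among those on the other side. The mitotic list also had siAgrin 2 as its lowest siAgrin library, for 36 of 37 genes. The count of 29 was 7 without siAgrin 3, 11 without siControl 2, 11 without siControl 3 and 0 without both libraries of replicate 3. Counts of all tested genes in these fits are not given, so the falls are not shown to be particular to mitotic genes. The difference between the lists was not tested.

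**Figure D5:**
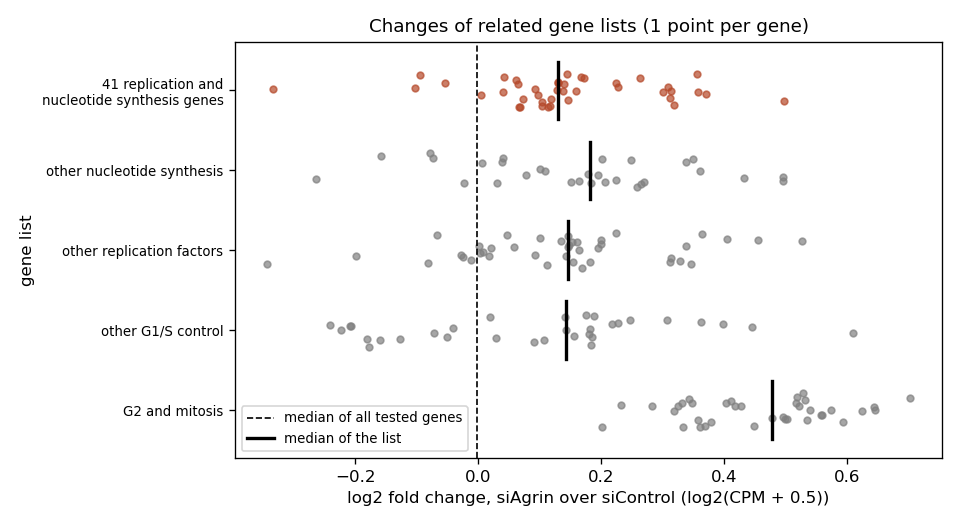
Log2 fold change of siAgrin over siControl on log2(CPM + 0.5), 1 point per tested gene, for the 41 genes and 4 related lists, with the median of each list (bar) and of all tested genes (dashed line). The median is 0.13 for the 41 genes, 0.14 to 0.18 for the other nucleotide synthesis, replication and G1/S lists, and 0.48 for G2 and mitosis.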

How the data were processed

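Polyadenylated RNA of HaCaT cells was sequenced from stranded libraries. The authors aligned reads to hg38 with STAR 2.6.1d, sorted them with SAMtools, counted them per gene with HTSeq on GENCODE 29 and used edgeR; the strand setting and the gene filter are not given in the sources used here. They deposited CPM, which is not scaled by gene length. All values (100%) were whole reads within 0.01 of a read, so reads were recovered, and edgeR called 3 members higher on them.

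The groups were compared with limma 3.58.1 (limma-trend, two-sided, R 4.3.3) on log2(CPM + 0.5) for genes reaching 0.5 CPM in 3 or more libraries, with Benjamini-Hochberg adjustment over 13050 genes at 0.01, the study's 1% false discovery rate. Its methods also ask for more than 2-fold. Alternatives were 0.1 or 2 CPM added, no low filter, TMM scaling, median-ratio scaling, only genes averaging 5 CPM or more, no trend, robust fitting, edgeR 4.0.16, DESeq2 1.42.0, a replicate block, adjusted p below 0.05 and leaving out libraries. Leaving out both libraries of a number was chosen after seeing the data. Positions and exon lengths are from GENCODE 44, promoters from RefSeq. The members and lists were chosen with earlier results of these data known. Named were all called members and up to 2 members of lowest p in other roles. All called genes of the related lists were named, except for G2 and mitosis, where only the 4 of lowest p were. Other genes are in counts or beside these. Limma was also run on simulated data, drawn gene by gene without the shared shifts between libraries seen here. That run therefore does not check limma on data with such shifts.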

Additional observations from a re-analysis of the deposited data

How the results depend on the processing

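The count of 3 genes called higher was 3 with 0.1 or 2 CPM added, a mean of at least 5 CPM, TMM scaling, median-ratio scaling, robust fitting and edgeR, and 2 without a trend. It was 0 with no filter, where 14168 genes were tested, 9 in DESeq2 and 12 at adjusted p below 0.05. Among all tested genes, too, fewer were called higher with no filter and without a trend than in the main fit. More were called higher in DESeq2 and at adjusted p below 0.05. These shifts are thus not shown to be particular to the set. Over the fits that left out 1 library or both libraries of a number the count of 3 ran from 0 to 12. No gene was called lower in any of these fits. The median log2 fold change ran from 0.081 to 0.19 over the same leave-outs. Genes without overlap ran from 16 to 27 for higher and from 1 to 3 for lower in siAgrin. Leaving out libraries can only keep or raise these counts. The count of lower was 0 at a mean of at least 5 CPM, since CCNE1 lies below it. The cause of the other shifts was not tested.

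With a replicate block the count was 11, including the 3 genes called in the main fit. In that fit 1952 of 13050 tested genes were called higher, against 1193 in the main fit. Deviations of same-numbered libraries over all tested genes correlated at 0.53, 0.38 and -0.002 for replicates 1, 2 and 3. There siAgrin 3 did not correlate best with its own number. Over the genes of the set the correlations were 0.84, 0.57 and 0.41, but siAgrin 2 correlated best with siControl 3 (0.71). The numbers were thus not taken to pair the libraries. Whether same-numbered libraries share an effect was not tested.

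The log2 fold change turned sign in some leave-outs for 9 genes near 0. It ran from -0.0073 to 0.21 for MCM4, from -0.097 to 0.18 for MCM6, from -0.093 to 0.23 for MCM10, from -0.088 to 0.15 for POLA1, from -0.014 to 0.13 for POLE2, from -0.059 to 0.20 for PCNA, from -0.14 to 0.14 for FEN1, from -0.038 to 0.25 for E2F1 and from -0.27 to 0.038 for CCNE2.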
